A study of Bos taurus with 15 samples.

Results

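Pregnancy-associated glycoproteins are secreted proteins of the ruminant trophoblast, and 4 of their genes, PAG2, PAG8, PAG11 and PAG12, were followed in bovine (Bos taurus) blastocysts at day 7. They are 4 of the 17259 genes in the table of counts. They were chosen by family name with the level of PAG2 in these groups already known from an earlier analysis of the same libraries. Their differences between groups are therefore given as a description, without a test. The study sequenced poly(A) RNA from 3 groups of 5 libraries. The in vivo group was collected from animals. The manual and automatic groups were cultured in SOF, a synthetic oviduct medium, after the cumulus cells had been removed from the zygotes by hand or by an automated method. No genotype, breed or added agent is given for any group. The series text counts 5 blastocysts per group, as many as there are libraries. The labels do not say that libraries of a group came from separate animals or cultures, so the p-values reflect library-to-library spread, part or all of which could be technical. The comparison asks how embryos from culture, and from each way of cumulus removal, stand against embryos collected in vivo.

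The PAG proteins resemble pepsin and other aspartic proteases, and several have lost the residues needed to cut proteins. In cattle their genes lie side by side as close copies. An older branch of the family, which includes PAG2, PAG8, PAG10, PAG11 and PAG12, is expressed across the trophoblast, and a younger branch is made mainly by the binucleate cells that form later, around implantation. PAG proteins that reach the mother's blood are used as a pregnancy test. At the blastocyst stage the tissue that could make them is the trophectoderm, the outer epithelium of the embryo.

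The deepest library held 41.97 M counts and the shallowest 17.96 M, around a median of 27.6 M (M, counts in units of 1e6). In in vivo 2, in vivo 4, manual 2, automatic 2 and automatic 4, 6977 to 8547 genes reached 10 counts, against 9900 to 12611 in the other 10, and mitochondrial transcripts took 8.18% to 14.4% of counts against 3.26% to 9.99%. These 5 are called low-detection libraries below, and the main results are also given without them. The trophectoderm keratin KRT18 was present in all 15 libraries, at 1434 to 12159 CPM (counts per 1e6 counts, scaled by TMM factors). The leukocyte gene PTPRC and the granulosa factor FOXL2 had 0 counts in every library. FSHR and CYP19A1, also granulosa genes, had counts in all 15, at 0.545 to 42.7 CPM and 0.601 to 53.0 CPM. Blood and vessel genes other than PTPRC were detected. CD3E had counts in 9 libraries, up to 1.38 CPM, and HBB in 14, up to 190 CPM. PECAM1 had counts in all 15, at 7.85 to 201 CPM.

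PAG2 carried nearly all the PAG signal. It had counts in all 15 libraries and made up 92.9% to 100% of the counts summed over the 4 genes, with a median of 99.9%. The lowest share, in in vivo 5, had an exact 95% interval (Clopper-Pearson) of 92.4% to 93.3%. The 4 genes together took 7.73e-05% to 0.0834% of a library's counts. PAG12, the gene next to PAG2 in the gene order of the RefSeq annotation, had 0 counts in every library. A count of 0 allows a mean of up to 0.0193 CPM in the in vivo group, 0.0220 CPM in the manual and 0.0194 CPM in the automatic group (3 counts over the group). Such limits and intervals cover counting error only, not the spread between libraries. Because kallisto, which the submitters' notes name, divides reads among similar transcripts, a count for 1 close copy is less certain than the sum.

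PAG2 was highest in vivo, intermediate after manual and lowest after automatic removal. The in vivo libraries 1 to 5 held 793, 263, 466, 711 and 448 CPM. The manual libraries held 106, 135, 403, 203 and 255 CPM, and the automatic libraries 32.4, 0.818, 65.9, 125 and 57.1 CPM. All 5 automatic libraries lay below all 5 in vivo libraries, while 1 manual library, manual 3, lay among the in vivo values. Between automatic and manual libraries only automatic 4 and manual 1 crossed. Group means were 536 ± 214 CPM (in vivo), 221 ± 118 CPM (manual) and 56.2 ± 45.9 CPM (automatic; SD, n = 5 each). The in vivo mean was 9.54 times the automatic and 2.43 times the manual mean, and the manual mean 3.92 times the automatic. The SD fell with the level, while the spread relative to the mean grew, with coefficients of variation of 39.95%, 53.3% and 81.7% in that order. Without the low-detection libraries the SDs were 194, 124 and 17.4 CPM around means of 569, 242 and 51.8 CPM (n = 3, 4 and 3). The automatic group then had less relative spread than the manual group. In bulk samples fewer trophectoderm cells and less PAG2 RNA per cell cannot be told apart.

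**Figure D1:**
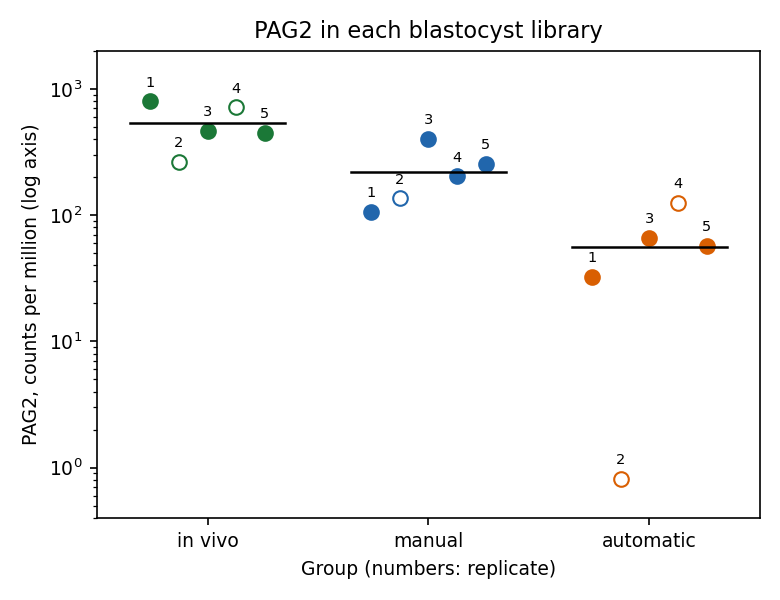
PAG2 in CPM (log axis) in each library of the in vivo, manual and automatic groups. Each point is 1 library with its replicate number, open points are the low-detection libraries, and lines are the means of 5 libraries. The automatic libraries lie between 0.818 and 125 CPM, all below the lowest in vivo library at 263 CPM.

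Automatic 2 had the lowest PAG2 of all libraries. It held 21 PAG2 counts in a total of 27.2 M, against 1037 to 2724 counts in the other automatic libraries. KRT18 in that library was 2861 CPM, inside the automatic range of 1434 to 3302 CPM, and KRT19 was 268 CPM, inside the range of 130 to 372 CPM. GATA3, a trophectoderm transcription factor, was 8.53 CPM there, the lowest of its group, with 25.5 to 159 CPM in the other 4 automatic libraries. The mean log2 CPM of 28 trophectoderm transcription factors was also the lowest of its group (2.23 to 4.17 in the others). That of 25 trophectoderm epithelium genes was 6.69, above automatic 4 at 6.56 and below the other automatic libraries at 7.21 to 8.09. It is a low-detection library, and the part of low detection in its PAG2 value was not tested. The low-detection libraries as a set were not uniformly poor in PAG2: in vivo 4 had the second highest in vivo value and automatic 4 the highest of its group.

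The fitted differences followed the same order. PAG2 differed by log2 -2.27 ± 0.58 (SE) between in vitro and in vivo. Here in vitro is the mean of both cultured groups on the log2 scale. By mean CPM the in vivo level was 3.87 times that in vitro. Singly, automatic differed from in vivo by -3.25 ± 0.76, manual from in vivo by -1.28 ± 0.70, and automatic from manual by -1.97 ± 0.72. The median of all 11578 genes tested was -0.04, -0.06, -0.02 and -0.05 in these 4 comparisons. The comparisons share libraries, so their values are not independent of each other. With the 4 genes summed, the differences were -2.27 ± 0.58, -3.27 ± 0.76, -1.26 ± 0.70 and -2.01 ± 0.72. Since PAG2 makes up nearly all of the sum, these values are no second check on it. In the 10 other libraries PAG2 differed by -2.35 ± 0.36, -3.45 ± 0.49, -1.25 ± 0.42 and -2.20 ± 0.45, with standard errors below those of the full set. The means were then 569 ± 194 CPM for in vivo (n = 3), 242 ± 124 CPM for manual (n = 4) and 51.8 ± 17.4 CPM for automatic libraries (n = 3).

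Since PAG2 was chosen with these levels known, calls and p-values of the members are listed without weight. Of the 4 genes 2 passed the filter on low counts, PAG2 and PAG11. PAG11 had 1002 counts in vivo and 786 in manual libraries, against 16 in automatic ones. It thus passed mainly through the groups where it is high, and its p-values against automatic are no support. Neither was called by edgeR's quasi-likelihood test at an adjusted p under 0.05 in any of the 4 comparisons, where calls made up 0.0173% of genes for in vitro against in vivo and for automatic against in vivo (2 of 11578 each) and 0% for automatic against manual and for manual against in vivo. In the last, DESeq2 called 115 genes and limma-voom 1. At an unadjusted p under 0.05 stood 1 of 2 for in vitro against in vivo, 2 of 2 for automatic against in vivo, 0 of 2 for manual against in vivo and 2 of 2 for automatic against manual. Of all 11578 genes 710, 621, 392 and 171 lay under it in the same order. PAG2 was called by limma-voom for in vitro against in vivo, with 15 of 11578 genes called. It was called by DESeq2 for automatic against in vivo, with 169 of 15005 genes called. With the low-detection libraries left out, edgeR called 1 of 3 members tested, PAG2, in the first comparison (0.0568% of 12329 genes called) and in that of automatic with in vivo (0.073%). Among the 2 members tested, PAG2 was without overlap for automatic below in vivo, as were 1.16% of all genes tested. For in vitro below in vivo, manual below in vivo and automatic below manual 0 of 2 were, against 0.276%, 0.605% and 0.527% of all genes.

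PAG11 was found in some libraries and missing from others. It is a gene of the older branch and lies far from PAG2, near the other end of the cluster. In vivo libraries 1 to 5 held 0, 0, 158, 0 and 844 counts, or up to 30.9 CPM. Manual libraries held 0, 1, 252, 295 and 238 counts, and automatic libraries 13, 0, 0, 0 and 3. The manual group thus had the most libraries above 100 counts, 3 of 5, against 2 of 5 in vivo and 0 of 5 after automatic removal, and all groups overlapped at or near 0. Group means were 6.84 ± 13.5 CPM (in vivo), 5.96 ± 5.67 CPM (manual) and 0.0974 ± 0.176 CPM (automatic; SD, n = 5). The fitted difference for in vitro against in vivo was -3.13 ± 1.82 (log2), and -0.05 without in vivo 5. It is the mean of the automatic and manual log2 differences, which were of opposite sign without in vivo 5. By mean CPM, in vitro libraries stood at 3.03 and in vivo libraries at 6.84. Manual against in vivo stood at -0.20 ± 2.16, and at 2.87 without in vivo 5. Automatic against in vivo stood at -6.06 ± 2.70, and at -2.98 without in vivo 5. Automatic against manual stood at -5.86 ± 2.67 and ranged from -7.85 to -5.40 over fits without 1 library. The 5 low-detection libraries held 1 PAG11 count among them, in manual 2. The part of low detection in the zeros was not tested. In vivo 1, manual 1 and automatic 3, which are not low-detection libraries, had 0 counts too.

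PAG8, the last gene of the cluster and also of the older branch, was found in 3 of 15 libraries. It had 60 counts in in vivo 3, 92 in in vivo 5 and 25 in manual 1, or 1.23, 3.37 and 0.768 CPM. The automatic libraries had 0 counts, which allows up to 0.0194 CPM over the group. Both in vivo libraries with PAG8 were also the in vivo libraries with PAG11, while manual 1, with PAG8, had no PAG11. PAG8 was below the filter on low counts with all libraries, so no fold change was fitted. Groups overlapped at 0.

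**Figure D2:**
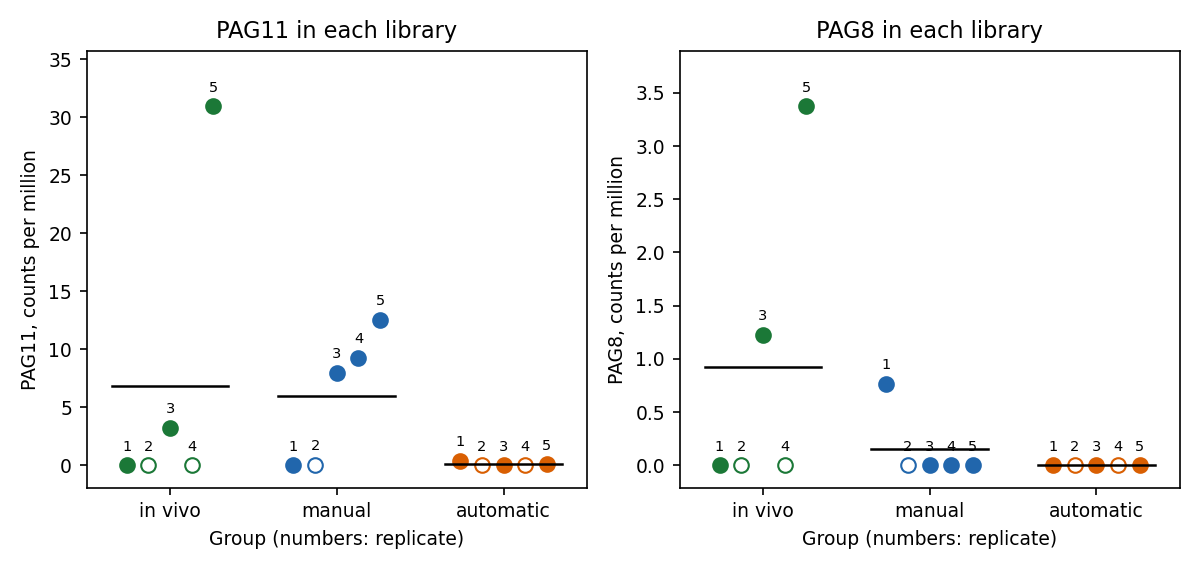
PAG11 (left) and PAG8 (right) in CPM in each library, with replicate numbers. Open points are low-detection libraries and lines are the means of 5 libraries. Most libraries lie at or near 0, and in vivo 5 holds the highest value of both genes, at 30.9 and 3.37 CPM.

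The rest of the family, as far as it has rows in the table, was nearly silent. RefSeq (assembly ARS-UCD2.0, used here for names and gene order alone) lists 19 genes with PAG symbols in 1 cluster, of which 14 have a row in the table. Of these 8 had a count in any library and 6 were at 0 throughout. PAG4, PAG14, PAG16, PAG17 and PAG20 have no row, so their level is not known. PAG10, the older-branch gene on the other side of PAG2, had 44 counts, all in automatic 1. The 9 younger-branch genes with a row (PAG3, PAG5, PAG6, PAG7, PAG9, PAG15, PAG18, PAG19 and PAG21) held 56 counts over all 15 libraries, at most 20 of 1 gene in 1 library. In vivo libraries held 50 of these, manual libraries 6 and automatic libraries 0. PAG3, with 27 counts in 6 libraries, and PAG9, with 20 counts in in vivo 5, accounted for most. Close copies of PAG2 can draw a few of its reads, and whether these counts came from there was not tested. PAG2 and PAG12 are immediate neighbours, yet PAG2 held 127570 counts in all and PAG12 held 0. PGA5, a pepsinogen gene next to PAG8, had 3 counts in 1 library.

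**Figure D3:**
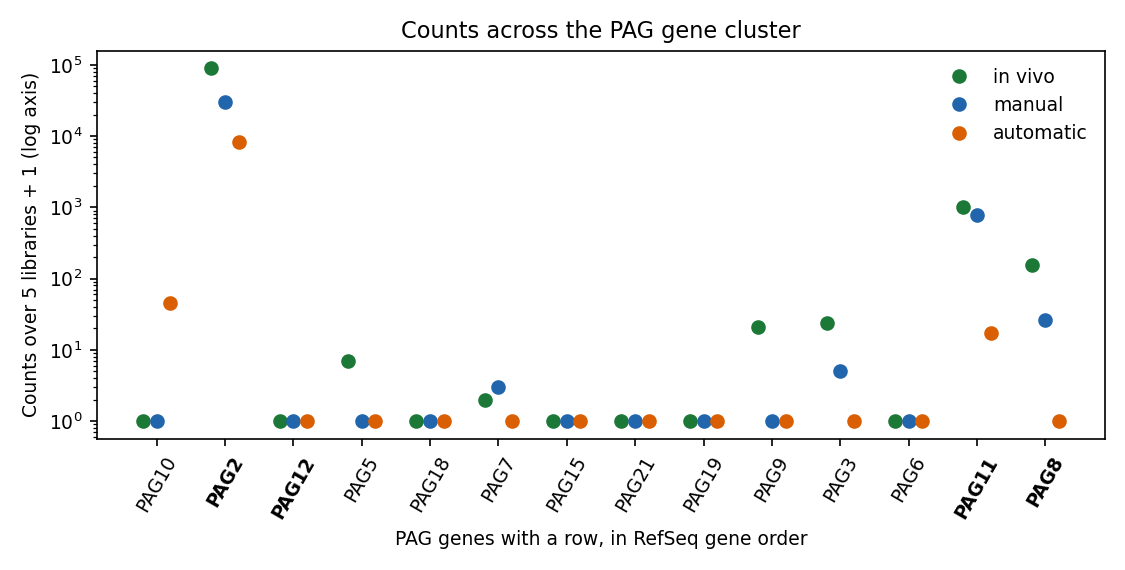
Counts summed over the 5 libraries of each group, plus 1 (log axis), for the 14 PAG genes with a row, in RefSeq gene order, with the 4 members in bold. PAG2 stands above every other gene in each group, PAG11 and PAG8 follow in vivo, and 6 genes sit at 0 counts in all groups.

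The row named PAG1 is not counted with the family. In RefSeq this symbol belongs to a gene on another chromosome, and the glycoprotein known as PAG1 is listed under LOC281964 inside the cluster. The row held 1137 counts over 8 libraries, up to 8.88 CPM, and differed by log2 0.98 between in vitro and in vivo, opposite in sign to PAG2. Which gene those counts belong to cannot be settled from the name.

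PAG2 was also set against other genes of the embryo's outer epithelium in the same library, as the log2 ratio of their counts (not per length, so only differences between groups are read). Relative to KRT18, PAG2 stood at -3.81 ± 0.45 in vivo, -4.70 ± 0.38 after manual and -6.52 ± 3.04 after automatic removal (SD, n = 5). The automatic values ran from -11.7 in automatic 2 to -3.52 in automatic 4, the latter above the in vivo mean, while all in vivo libraries lay above all manual ones. Without the low-detection libraries the ratio was -3.72 ± 0.60 (n = 3), -4.65 ± 0.43 (n = 4) and -5.81 ± 0.17 (n = 3). The 3 groups then no longer overlapped, which held for KRT18 alone of the genes compared. In that set the ratio to KRT8 was -4.76 ± 0.04, -5.22 ± 1.23 and -7.16 ± 0.62, with overlap. That to LRP2, of the same epithelium, was -2.30 ± 0.66, -3.06 ± 0.36 and -3.88 ± 0.44, also with overlap. That to GATA3 was 2.64 ± 0.48, 1.01 ± 0.99 and -1.09 ± 0.72, and manual and automatic values crossed. Relative to GATA3, PAG2 stood at 3.65 ± 1.43, 1.22 ± 0.97 and -0.85 ± 2.06 in the same order with all libraries. Relative to KRT19, another keratin of this epithelium, it stood at -1.14 ± 1.57, -1.94 ± 0.94 and -3.22 ± 2.88, with wide overlap. Without the low-detection libraries the KRT19 ratio was -1.60 ± 0.61, -2.16 ± 0.92 and -2.31 ± 0.27. The order in vivo, manual, automatic was thus seen in the mean ratio to each of KRT18, GATA3 and KRT19, with the smallest steps for KRT19 among these 3.

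**Figure D4:**
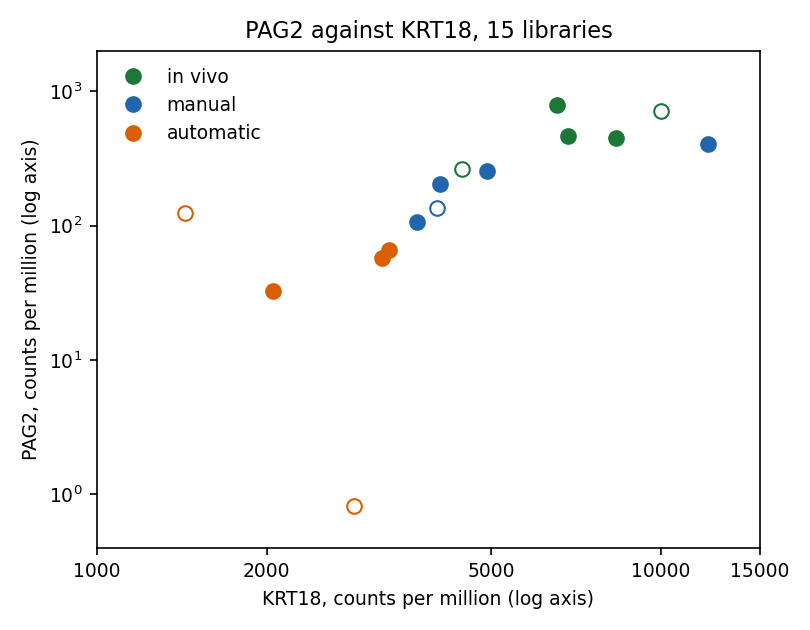
PAG2 against KRT18 in CPM (both log axes) in 15 libraries, coloured by group, with low-detection libraries open. Most libraries run from automatic at the lower left to in vivo at the upper right; automatic 2 lies below the rest at 0.818 CPM of PAG2, and automatic 4 lies above the other automatic libraries at 125 CPM.

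Among 8617 genes with a mean of at least 5 CPM, the 4 most like PAG2 over all 15 libraries, by Spearman correlation of log2 CPM, were LRP2, KRT18, FADS3 and SLC7A4. LRP2, an endocytic receptor of epithelia, reached rho = 0.918, KRT18 0.879, and FADS3 and SLC7A4 0.871 each. FADS3 belongs to the fatty acid desaturase family and SLC7A4 to a family of amino acid carriers. The Pearson coefficients of the 4 were 0.777, 0.613, 0.754 and 0.711. These libraries share 3 groups that differ in PAG2, so the values describe a common order of groups and have no p. LRP2 had means of 2907 ± 753 CPM (in vivo), 1692 ± 669 CPM (manual) and 709 ± 168 CPM (automatic; SD, n = 5). With each group's mean removed, the Pearson coefficient of LRP2 with PAG2 was 0.359 and that of KRT18 0.0618. In the 10 libraries without low detection these were 0.668 and 0.750.

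With group means removed, a different set came first. SLC35F5, TEX10, CNOT11, NCBP2AS2 and B3GAT3 had Pearson coefficients of 0.943 to 0.958 with PAG2 over 15 libraries. Their coefficients were 0.342 to 0.781 without the low-detection libraries, which include automatic 2 with its very low PAG2. NANOG, a pluripotency factor of the inner cells, also followed PAG2 with group means removed (Pearson 0.898) and over all libraries (Spearman 0.854). Automatic 2 was the lowest automatic library for NANOG too, at 4.68 CPM against 39.3 to 94.4 CPM in the others. The NANOG coefficient without the low-detection libraries is not given here. GATA3 and CDX2 stood at 0.0429 and 0.196 over all libraries (Spearman) and at 0.541 and -0.506 with group means removed (Pearson).

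Variation of PAG2 among libraries of the same group was not used to choose the genes, so it was tested against 4 library measures, each with group means removed (15 libraries, two-sided permutation within groups, p adjusted over the 4 relations). None passed. Against the number of genes detected Pearson r was 0.251 (permutation p = 0.64, adjusted p = 0.64) and Spearman rho 0.164 (permutation p = 0.617, adjusted p = 0.617). Against the mitochondrial share r was -0.179 (permutation p = 0.405, adjusted p = 0.539) and rho -0.132 (permutation p = 0.596, adjusted p = 0.617). The first of these turned to -0.182 without automatic 2, and neither passed in any fit without 1 library. Against the mean level of 25 trophectoderm epithelium genes r was 0.353 (permutation p = 0.195, adjusted p = 0.391) and rho 0.396 (permutation p = 0.153, adjusted p = 0.307). Against the mean level of 28 trophectoderm transcription factors r was 0.44 (permutation p = 0.0905, adjusted p = 0.362) and rho 0.471 (permutation p = 0.0813, adjusted p = 0.307). Without the 2 libraries farthest from the median of the measure, r was 0.539, -0.0613, 0.6 and -0.115 in the order given. The relation to the epithelium list then passed by Pearson (permutation p = 0.0124, adjusted p = 0.0497) but not by Spearman (rho = 0.654, permutation p = 0.0175, adjusted p = 0.0702), and that to the transcription factors changed sign. Both lists passed by Pearson without automatic 4 (r = 0.554 and 0.64, permutation adjusted p = 0.021 each) but not by Spearman (permutation adjusted p = 0.0891 each). In the 10 libraries that are not low-detection r was -0.411 with genes detected, 0.12 with the mitochondrial share, 0.396 with the epithelium list and 0.151 with the transcription factors (permutation adjusted p of 0.766, 0.825, 0.766 and 0.825). The first and second of these signs are opposite to those over 15 libraries.

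The genes around PAG2 in the trophectoderm were taken from lists that exclude the 4 members. These lists, and those of other cells below, were chosen with earlier results of these data known. Counts within a list are therefore a description and no test of the list. Between in vitro and in vivo edgeR called 0 members of any list, and the median log2 difference of all genes was -0.04, with 51.8% of genes below 0. Of all 11578 genes 710 had an unadjusted p under 0.05, 425 of them lower. Over all genes DESeq2 called 197 (83 lower) of 15005 and limma-voom 15 (10 lower) of 11578. Of 25 trophectoderm epithelium genes 17 lay below 0 (median -0.19), and 7, all lower, had an unadjusted p under 0.05. DESeq2 and limma-voom called 1 gene of this list each, lower. In the 10 libraries that are not low-detection the median was -0.08, and edgeR called 1 of the 25, lower. Of 17 trophoblast products tested, such as hormones, enzymes of steroid and prostaglandin synthesis and growth factors, 13 lay below 0 (median -0.75), 6 of them at an unadjusted p under 0.05, and neither other tool called any. Their median was -0.31 without the low-detection libraries. Of 28 trophectoderm transcription factors 16 lay below 0 (median -0.35). At an unadjusted p under 0.05 stood 3 lower and 1 higher, and DESeq2 called 2, limma-voom 0. Of 10 other aspartic proteases, the wider enzyme family that PAG proteins resemble, 8 lay below 0 (median -0.38), but the median was 0.12 without the low-detection libraries. One of them had an unadjusted p under 0.05, and DESeq2 and limma-voom called 0.

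Single genes of these lists show how PAG2 stood among them. KRT18 lay at 7245 ± 2081, 5769 ± 3601 and 2571 ± 804 CPM in vivo, after manual and after automatic removal (SD, n = 5), and its 5 automatic libraries lay below all other libraries. KRT19 differed by log2 -1.84 ± 0.55 between in vitro and in vivo, and AKR1B1, an aldose reductase with prostaglandin synthase activity, by -1.16 ± 0.32. VGLL1, a cofactor of TEAD factors, differed by -1.50 ± 0.37, with its lowest mean after manual removal (70.2 ± 25.1 CPM against 102 ± 56.9 CPM after automatic removal and 239 ± 100 CPM in vivo). By edgeR the adjusted p of KRT18, KRT19, AKR1B1 and VGLL1 was 0.553, 0.534, 0.411 and 0.275. LRP2 was called lower by edgeR for automatic against in vivo (log2 -2.04 ± 0.31, adjusted p = 0.0294). GATA3 and CDX2 differed by 0.46 ± 0.68 and -0.77 ± 1.09 between in vitro and in vivo (edgeR adjusted p = 0.999 each).

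**Figure D5:**
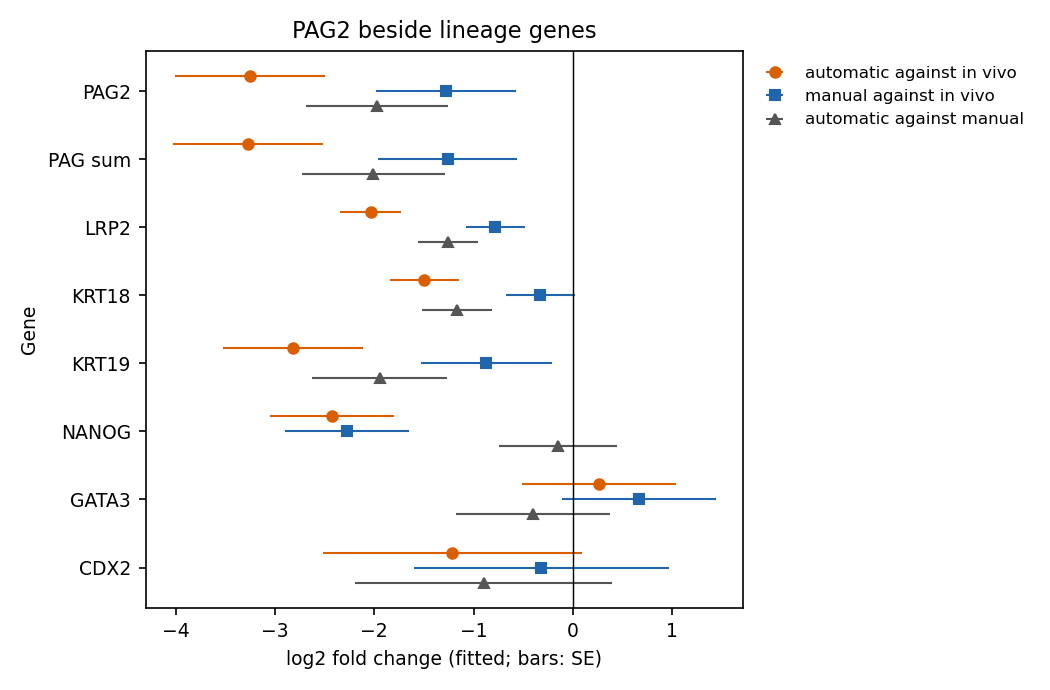
Fitted log2 fold changes for automatic against in vivo, manual against in vivo and automatic against manual, for PAG2, the sum of the 4 PAG genes and 6 lineage genes, with bars of 1 standard error. PAG2, LRP2, KRT18 and KRT19 lie farther below 0 for automatic against in vivo than for manual against in vivo, while NANOG has similar values in both (-2.43 and -2.27).

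Automatic against manual gave 0 calls among all 11578 genes by edgeR and by limma-voom, 57 by DESeq2, and 171 genes at an unadjusted p under 0.05. Of the trophoblast products 14 of 17 lay below 0 in that comparison (median -0.89) and 7, all lower, had an unadjusted p under 0.05, and of the trophectoderm epithelium genes 17 of 25 (median -0.18) and 5. DESeq2 called 0 of the former and 1 of the latter. The median of all genes was -0.05, with 52.9% below 0.

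Markers of other cells were read beside these values. Epiblast genes had 11 of 20 below 0 between in vitro and in vivo (median -0.29) and hypoblast genes 9 of 19 (median 0.01). Without the low-detection libraries the epiblast median turned to 0.04 and the hypoblast median was 0.09. At an unadjusted p under 0.05 stood 3 epiblast genes lower and 1 higher, and 1 hypoblast gene higher. DESeq2 and limma-voom each called 2 epiblast genes, lower, and 0 hypoblast genes, where they called 197 and 15 of all genes. NANOG differed by -2.35 ± 0.49 (edgeR adjusted p = 0.191), and CTSV, a cathepsin gene in the hypoblast list, by 0.66 ± 0.22 (edgeR adjusted p = 0.553). SOX17, a hypoblast factor, was below the filter, with counts in 4 of 15 libraries. Cumulus genes had 4 of 5 below 0 (median -0.55). Their summed level spanned 19.96 to 76.2 CPM in vivo, 11.4 to 208 CPM after manual and 12.1 to 96.4 CPM after automatic removal. Uterine and oviduct epithelium genes had 3 of 6 below 0 (median -0.39) and spanned 85.3 to 203, 34.1 to 247 and 46.1 to 117 CPM. Blood and stroma genes had 1 of 7 below 0 (median 1.73, and 0.52 over 9 genes without the low-detection libraries) and spanned 49.9 to 146, 82.6 to 546 and 71.9 to 658 CPM. DESeq2 called 1 cumulus gene and 2 blood and stroma genes, all higher, and limma-voom 0. POSTN, a matrix protein of the blood and stroma list, was at 0 in all in vivo libraries, and its means were 103 ± 138 CPM (manual) and 21.4 ± 33.8 CPM (automatic). LUM, a matrix proteoglycan of the cumulus list, had means of 0.102 ± 0.149, 65.2 ± 61.2 and 23.3 ± 32.3 CPM from in vivo to manual to automatic. Both matrix genes had their highest mean after manual removal, with an SD there near or above the mean. The part of these cells in the PAG2 difference was not tested.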

How the data were processed

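Gene counts come from a single table of estimated counts that the authors deposited, as whole numbers and unscaled. Per the submitters' processing notes the tools were FastQC, fastp and kallisto, with no version or role stated. Per the labels' protocols the libraries were stranded and their adaptors carried molecular identifiers. Whether counting used these, and the transcript set and build, is not given in the sources used here. No coordinates are printed. The members and gene lists were chosen with earlier results of these data known, as were the 5 low-detection libraries. Counts were rounded, which changed 0 values. Libraries of a group differed beyond sampling noise (chi-square over degrees of freedom, lowest pair 172).

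Genes kept by filterByExpr (11578 of 17259) were fitted in R 4.3.3 with edgeR 4.0.16 (TMM, robust estimateDisp and glmQLFit, glmQLFTest; 15 libraries, a mean per group, Benjamini-Hochberg). A standard error is |log2 fold change| over the root of the F statistic. The sum of the 4 PAG genes was fitted in a table where it replaced them. Log2 CPM used a prior count of 2. Correlations used 100000 permutations within groups. Other settings used limma 3.58.1 and DESeq2 1.42.0. DESeq2 was run without filterByExpr, on 15005 genes. Its calls, also within a list, are thus over a wider set of genes than those of edgeR. The fits and correlations were also run on simulated data, and the outcome of those runs is not reported here.

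Genes named are the 4 members, PAG rows of the table, the list member with the smallest p (if under 0.05 unadjusted) and called list members for in vitro against in vivo, the 5 most like PAG2 by each measure, and KRT18, KRT19, GATA3, CDX2, NANOG and SOX17. Some genes that this rule names are not reported here. PTPRC, FOXL2, FSHR, CYP19A1, CD3E, HBB, PECAM1, KRT8 and PGA5 were added after their values were seen.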

Additional observations from a re-analysis of the deposited data

Results flagged for a closer look

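In 3 cases 1 library of a group lay far from the other 4, by a test that flags about 1 group in 20 by chance. PAG11 stood at 30.9 CPM in in vivo 5, where the next highest in vivo library held 3.23 CPM. It stood at 0.406 CPM in automatic 1, against 0.0807 CPM in the next automatic library. PAG8 stood at 0.768 CPM in manual 1, with 0 in the other manual libraries. Where most libraries are at 0, such a gap arises from any single library with counts.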

How the results depend on the processing

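PAG2, and the sum of the 4 genes that it nearly makes up, kept a negative log2 difference in all 4 comparisons under every setting run. For in vitro against in vivo PAG2 ranged from -2.83 (limma-voom) to -2.17 (library size alone), and from -2.54 to -2.09 over fits without 1 library. For automatic against in vivo it ranged from -3.78 to -2.94 without 1 library, the end nearest 0 being without automatic 2. For manual against in vivo that range was -1.62 to -1.11 and for automatic against manual -2.48 to -1.63. PAG11 by limma-voom was -0.17 for in vitro against in vivo, -2.36 for automatic against in vivo and 2.02 for manual against in vivo. With the replicate block these were -1.40, -4.66 and 1.85.

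Counts of called genes moved more. In the order in vitro against in vivo, automatic against manual, automatic against in vivo and manual against in vivo they were 2, 0, 2 and 0, and 197, 57, 169 and 115 by DESeq2, and 7, 1, 9 and 3 without the low-detection libraries. By limma-voom they were 15, 0, 9 and 1, and 8, 0, 7 and 1 with the replicate block. Scaling by library size alone gave 0 for in vitro and 0 for automatic against in vivo. For automatic against in vivo the count was 1 without the filter and 1 with only the groups compared. Without 1 library the count for in vitro against in vivo ranged from 0 to 7 and that for automatic against in vivo from 0 to 4, the upper ends being without manual 3. Without 1 library r of PAG2 ranged from 0.291 to 0.554 with the epithelium list and from 0.254 to 0.64 with the transcription factors, both passing without automatic 4 by Pearson, not by Spearman. Without the 2 farthest libraries the former was 0.6.

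The labels do not say that a replicate number marks anything shared. Correlations of same-numbered deviations were all positive, at 0.234 to 0.380 for number 1, 0.0705 to 0.172 for 2, 0.122 to 0.378 for 3, 0.00137 to 0.0715 for 4 and 0.00524 to 0.0437 for 5, and 8 of 15 libraries correlated best with their own number. This is a hint from the data, its level by chance was not computed, and the libraries were treated as unpaired. The low-detection libraries all carry number 2 (every group) or 4 (in vivo and automatic). With the block PAG2 differed by -2.50, -2.42, -3.71 and -1.29 in the order of comparisons given for the counts. PAG8 and PAG12 gave no fitted value with all libraries under the main filter. For in vitro against in vivo, a fit of only the groups compared would hold all 3 groups and was not run.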
